A study of Saccharomyces cerevisiae with 32 samples.

Results

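The translation factors are the proteins that start, extend and end polypeptide synthesis on the ribosome, and 39 budding yeast open reading frames were taken as their genes: the subunits of the initiation factors eIF1 to eIF5B, the helicase DED1, the poly(A)-binding protein PAB1, the elongation factor genes and the termination factor genes. They were taken by systematic name, with no threshold on their measured values, although earlier results of these data were known. All 39 were found among the 6696 open reading frames that were counted. They were followed in 8 natural isolates of Saccharomyces cerevisiae, which the labels call CQC, AMH, BED, BAN, CMP, BTT, BPL and CPI, each labelled as wild type in genotype and grown in SC medium, with no treatment, age or further allele given. Each isolate had 2 mRNA libraries and 2 libraries of ribosome-protected mRNA fragments (footprints), 32 libraries in all, and the study's question was how differences in mRNA between genetic backgrounds appear in translation. An isolate stands for 1 genetic background, and the labels do not tell whether its 2 libraries of an assay were grown apart. The p-values below therefore rest on library-to-library spread that may be technical. All reads were placed on 1 reference genome (sacCer3), whichever isolate they came from.

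Initiation begins when eIF2, a heterotrimer of SUI2 (alpha), SUI3 (beta) and GCD11 (gamma), carries the initiator tRNA to the small ribosomal subunit with GTP. eIF2B (GCN3, GCD7, GCD1, GCD2 and GCD6) recharges eIF2 with GTP, eIF3 (RPG1, PRT1, NIP1, TIF34, TIF35 and the associated HCR1) is a scaffold on the small subunit, and eIF1 (SUI1), eIF1A (TIF11), eIF5 (TIF5) and eIF5B (FUN12) govern start codon choice and joining of the large subunit. The cap-binding protein eIF4E (CDC33), the scaffold eIF4G (TIF4631 and TIF4632), the helicase eIF4A (TIF1 and TIF2), eIF4B (TIF3), DED1 and PAB1 bring mRNAs to the ribosome. In elongation, eEF1A (TEF1 and TEF2) delivers aminoacyl-tRNA, eEF1B (EFB1, with gamma subunits TEF4 and CAM1) recharges eEF1A, eEF2 (EFT1 and EFT2) drives translocation, eEF3 (YEF3 and HEF3) is an ATPase found in fungi, and eIF5A (HYP2 and ANB1) relieves stalled ribosomes. The release factors SUP45 (eRF1) and SUP35 (eRF3) end translation at stop codons. Several factors are encoded by a pair of paralogues, of which HEF3 and ANB1 are known as the members used little in ordinary aerobic growth, ANB1 being known as a gene induced by low oxygen.

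Footprint libraries ranged from 27621 to 4391002 counted reads and mRNA libraries from 3703931 to 11570247, with the BAN footprints the shallowest at 63336 and 27621 reads. The 39 genes took 122152 to 767431 reads of an mRNA library and 1697 to 250674 of a footprint library. Levels below are normalised CPM, read counts scaled to library size with TMM factors within each assay. A difference is the log2 level of an isolate minus the mean log2 level of the other 7, with its SE, and was called at an adjusted p under 0.05 in edgeR's quasi-likelihood test over all genes. Translation efficiency (TE) is footprints over mRNA, tested by the term for assay by isolate. All 39 genes passed the filter on low counts in every layer.

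The translation factor genes took their smallest share of reads in CQC and their largest in AMH and BED. They held 2.16% of mRNA reads in CQC, 3.57% in BAN, 4.42% in CMP, 4.43% in CPI, 4.44% in BPL, 4.66% in BTT, 6.61% in BED and 7.27% in AMH, as means of 2 libraries. Their share of footprints was 3.96% in CQC, 5.45% in BPL, 5.86% in BTT, 6.07% in CPI, 6.15% in BAN, 6.96% in CMP, 7.24% in BED and 7.28% in AMH. The share was larger in footprints than in mRNA in 7 isolates and about equal in AMH, and the isolates were closer together in footprints. The eEF1A genes TEF1 and TEF2 alone took 2.39% of footprints and 0.961% of mRNA reads in CQC, against 4.67% and 4.10% in AMH. In bulk cultures, fewer cells of a kind and less RNA per cell cannot be told apart, and a share of reads is not an amount per cell.

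**Figure D1:**
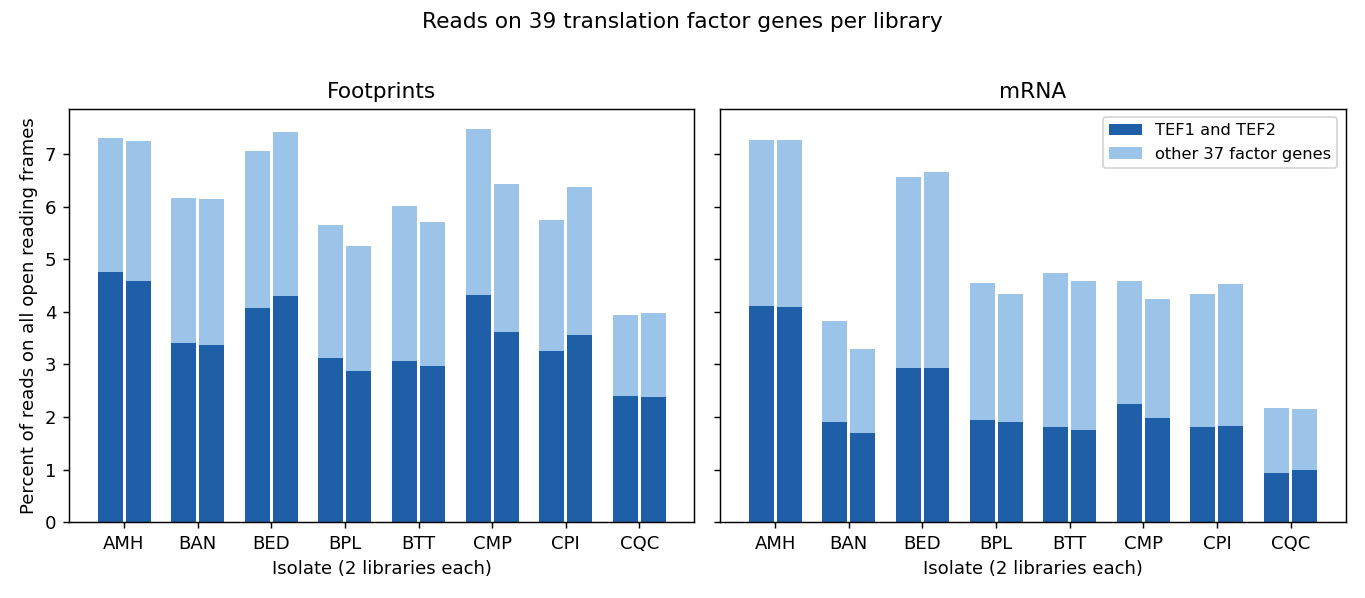
Percent of the reads on all open reading frames that fell on the 39 translation factor genes, in footprints (left) and mRNA (right). Each bar is 1 library, 2 per isolate, split into TEF1 with TEF2 (dark) and the other 37 genes (light); the CQC bars are the shortest in both assays, at 3.96% of footprints and 2.16% of mRNA reads on average.

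All 39 genes differed among the 8 isolates in mRNA, where 95.7% of the 6269 genes tested did. In footprints 37 of 39 differed, against 73.1% of 5347 genes, and in TE 20 of 39, against 29.2% of 5337. The 2 genes not called in footprints were GCD1 (adjusted p = 0.524) and GCD7 (adjusted p = 0.0543). The 20 genes called in TE held 8 of 11 elongation genes, all 3 eIF2 genes, 3 of 8 genes of mRNA recruitment, 2 of 6 eIF3 genes, 2 of 5 eIF2B genes, SUI1 and SUP45. Leaving out 1 replicate number of an isolate in both assays gave 12 to 19 genes called in TE, with 12 without BTT replicate 1 and 13 each without BED replicate 1 and BPL replicate 2.

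CQC stood lowest over most of the factors. In mRNA 31 of the 39 genes were lower in CQC than in the other 7 isolates, where 37.2% of all genes were, and 2 were higher, where 35.6% of all genes were. In footprints 23 were lower and 3 higher, against 23.3% and 26.2% of all genes. The median difference of the 39 genes was -0.69 in mRNA and -0.66 in footprints, against 0.02 in each layer over all genes. The largest falls in mRNA were those of the eIF3 subunit HCR1 (-2.35 ± 0.12), and of the eEF2 genes EFT1 (-2.28 ± 0.12) and EFT2 (-2.01 ± 0.12), and in footprints EFT1 (-1.87 ± 0.17), EFT2 (-1.84 ± 0.16) and the eIF3 subunit NIP1 (-1.56 ± 0.23). The 3 genes higher in CQC footprints were HEF3, HYP2 and SUI1. HEF3 and DED1 were the 2 higher in mRNA. Of these calls, 29 of the 31 falls in mRNA and 18 of the 23 in footprints held whichever library was left out. In TE 6 genes were higher and 1 lower, against 8.13% and 2.47% of all genes, with a median of 0.17 both for the 39 genes and for all genes. With total reads as the scale 16 were higher and 1 lower, and DESeq2's test made 12 calls. The TE rises were led by TIF4632 (1.66 ± 0.44), ANB1 (1.11 ± 0.28) and HCR1 (1.0 ± 0.24), and 1 call was left without CQC replicate 2, 2 without CQC replicate 1 and 4 without BTT replicate 1.

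AMH and BED lay at the other end. In AMH 30 genes were higher in mRNA and 4 lower, against 33.4% and 30.4% of all genes, with a median difference of 0.60 against 0.02. In BED 31 were higher and 2 lower, against 32.8% and 29.5% of all genes, with a median of 0.50 against -0.02. The leading genes in AMH mRNA were HYP2 (2.15 ± 0.12), SUI2 (1.56 ± 0.084) and TEF4 (1.36 ± 0.11), and those in BED mRNA were HCR1 (1.57 ± 0.083), SUI2 (1.37 ± 0.085) and ANB1 (1.32 ± 0.15). FUN12, the GTPase of subunit joining, went against the rest in AMH, at -0.97 ± 0.13 in mRNA and -1.13 ± 0.18 in footprints. HEF3 was lower in mRNA in both isolates, and so was DED1, at -0.72 ± 0.13 in BED and -0.40 ± 0.13 in AMH, although its AMH call was lost without AMH replicate 1 (-0.44, adjusted p = 0.054) or 2 (-0.37, adjusted p = 0.11).

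In footprints most calls were again rises in both isolates. BED had 23 genes higher and 3 lower, against 20.8% and 13.9% of all genes, with a median of 0.52 against 0.10, or 12 higher and 3 lower with total reads as the scale. AMH had 16 higher and 2 lower, against 19.9% and 14% of all genes, with a median of 0.26 against 0.07, and scaling to total reads changed the AMH split to 9 higher and 6 lower. The largest rises were those of TEF4 (1.01 ± 0.13), EFB1 (0.99 ± 0.15) and SUI1 (0.97 ± 0.16) in AMH and of HCR1 (1.26 ± 0.13), ANB1 (1.01 ± 0.16) and EFT1 (0.86 ± 0.13) in BED. The falls in BED footprints were those of TIF4632 (-1.03 ± 0.34), HEF3 (-0.63 ± 0.24) and DED1 (-0.45 ± 0.16), and none of them held in every leave-one-out fit. Leaving out AMH replicate 2 gave 9 calls in AMH (8 higher), and leaving out BED replicate 2 gave 11 calls in BED (all higher). In TE, AMH had 10 genes lower and 2 higher, against 6.01% and 3.49% of all genes, with a median of -0.35 against -0.01, or 18 lower and 1 higher with total reads as the scale. The 2 rises were HEF3 (2.44 ± 0.34) and TIF11 (0.59 ± 0.19). That count of 12 TE calls in AMH was 3 without AMH replicate 2, 4 without AMH replicate 1, 7 without CMP replicate 1, and 6 without either replicate of BED, BPL, BTT or CPI or without CMP replicate 2. HYP2 (-1.24 ± 0.24) and SUI2 (-0.97 ± 0.18) were the AMH calls in TE kept in all 16 of these fits. In BED 1 gene was higher and 3 were lower in TE, against 2.3% and 2.72% of all genes, or 1 and 15 with total reads as the scale. HEF3 (2.06 ± 0.32) was the rise, and TIF4632 (-1.45 ± 0.42), SUI2 (-0.84 ± 0.17) and GCD1 (-0.73 ± 0.20) the falls. The 4 calls fell to 1 without either BED replicate and to 2 without BTT replicate 1.

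**Figure D2:**
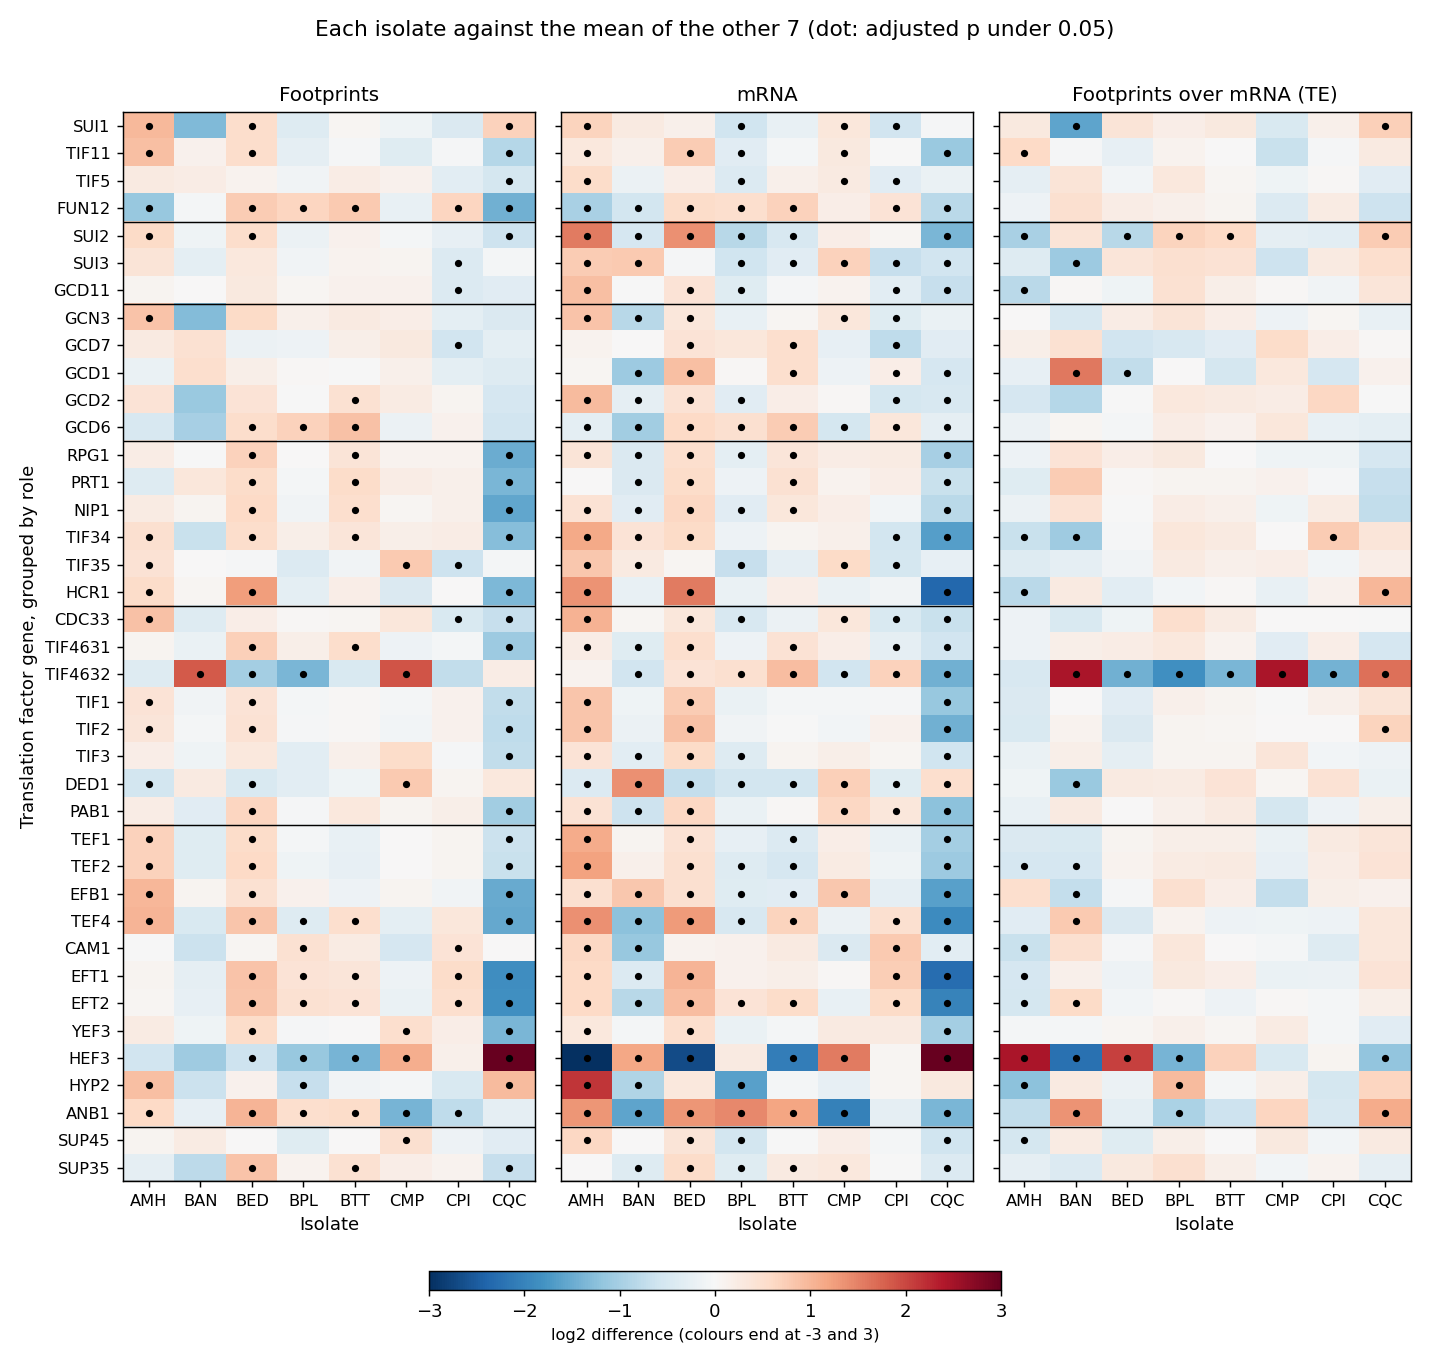
Log2 difference of each isolate from the mean of the other 7 for the 39 genes (rows, grouped by role between the lines) in footprints (left), mRNA (middle) and TE (right). Black dots mark calls at an adjusted p under 0.05 in edgeR's quasi-likelihood test; the CQC column is mostly blue in footprints and mRNA, the AMH and BED columns are mostly red, and HEF3 in CQC is the darkest red cell of each, at 3.53 and 4.71.

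The other 5 isolates showed smaller or mixed differences. In BAN 20 genes were lower and 6 higher in mRNA, against 33.1% and 34% of all genes, led by ANB1 (-1.59 ± 0.20), TEF4 (-1.24 ± 0.15) and CAM1 (-1.14 ± 0.14) below and DED1 (1.38 ± 0.11), HEF3 (1.17 ± 0.16) and EFB1 (0.81 ± 0.11) above. With total reads as the scale BAN had 27 lower and 4 higher. Footprints called 1 gene in BAN, TIF4632, higher, where 3.25% of all genes were, and few genes of any kind were called from the shallow BAN libraries. In TE, BAN had 5 genes higher, led by TIF4632 (2.44 ± 0.50), GCD1 (1.58 ± 0.44) and ANB1 (1.34 ± 0.37), and 7 lower, led by HEF3 (-2.24 ± 0.64), SUI1 (-1.58 ± 0.45) and DED1 (-1.11 ± 0.23), against 7.12% and 6.73% of all genes. That split was 18 higher and 0 lower with total reads as the scale, and 5 calls were left without BAN replicate 1 (0 higher) and 5 without BAN replicate 2 (4 higher), so BAN gave no stable TE direction. BPL had 19 genes lower and 5 higher in mRNA, against 19.1% and 27.6% of all genes, but 7 lower and 10 higher with total reads as the scale, so no direction of the set can be given there. Without BPL replicate 2 its 24 calls came to 9. HYP2 (-1.64 ± 0.16), SUI2 (-0.83 ± 0.10) and TIF35 (-0.68 ± 0.11) fell the furthest in BPL mRNA and ANB1 (1.45 ± 0.15), FUN12 (0.50 ± 0.11) and TIF4632 (0.48 ± 0.099) rose the furthest.

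BTT had 13 genes higher and 7 lower in mRNA, against 32.9% and 19.9% of all genes, or 23 and 3 with total reads as the scale, and 10 and 13 calls without BTT replicates 1 and 2 in turn. In CMP 12 were higher and 4 lower, against 27.6% and 26.2% of all genes, or 6 and 9 with total reads as the scale, with 10 calls without either CMP replicate. In CPI 9 were higher and 12 lower, against 31.4% and 22.4% of all genes, with 12 calls without CPI replicate 1 and 13 without CPI replicate 2. In these isolates the leading genes were ANB1 (1.19 ± 0.15), TIF4632 (0.92 ± 0.095) and GCD6 (0.75 ± 0.089) above and HEF3 (-2.07 ± 0.20), DED1 (-0.55 ± 0.13) and TEF2 (-0.51 ± 0.12) below in BTT. In CMP they were HEF3 (1.56 ± 0.15), EFB1 (0.81 ± 0.11) and DED1 (0.71 ± 0.12) above and ANB1 (-2.03 ± 0.21), TIF4632 (-0.58 ± 0.11) and GCD6 (-0.53 ± 0.10) below. In CPI they were CAM1 (0.79 ± 0.12), EFT1 (0.73 ± 0.096) and TIF4632 (0.68 ± 0.098) above and GCD7 (-0.77 ± 0.16), SUI3 (-0.69 ± 0.10) and SUI1 (-0.57 ± 0.13) below.

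Footprints gave fewer calls in these isolates. BTT had 13 genes higher and 1 lower, against 18.7% and 13.2% of all genes, but 5 and 7 calls without BTT replicates 1 and 2 in turn. BPL had 6 higher and 4 lower, against 16.1% and 9.07%, or 3 and 9 with total reads as the scale, and 3 and 2 calls without BPL replicates 1 and 2 in turn. CPI had 4 higher and 6 lower, against 17.7% and 12%, or 3 and 9 with total reads as the scale, and 4 and 3 calls without CPI replicates 1 and 2 in turn. CMP had 6 higher and 1 lower, against 11.4% and 7.29%, and 4 calls without CMP replicate 2. The eIF2B catalytic subunit GCD6 led the rises in BTT (0.88 ± 0.15) and BPL (0.69 ± 0.18, or 0.69 with an adjusted p = 0.0745 without BPL replicate 2), ahead of FUN12 (0.79 ± 0.13 and 0.65 ± 0.14) and ANB1 (0.56 ± 0.16 and 0.50 ± 0.17). In CPI FUN12 (0.65 ± 0.13), EFT1 (0.55 ± 0.13) and EFT2 (0.51 ± 0.13) rose the most, and ANB1 (-0.77 ± 0.18), TIF35 (-0.61 ± 0.15) and GCD7 (-0.58 ± 0.18) fell the most. In CMP TIF4632 (1.88 ± 0.32), HEF3 (1.10 ± 0.29) and TIF35 (0.79 ± 0.20) led the rises and ANB1 was the fall (-1.39 ± 0.25). The largest falls in BPL were TIF4632 (-1.36 ± 0.36), HEF3 (-1.13 ± 0.26) and HYP2 (-0.70 ± 0.19), and HEF3 was the fall in BTT. Of the 10, 14, 10 and 7 footprint calls in BPL, BTT, CPI and CMP, 1, 2, 1 and 2 held whichever library was left out.

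In TE, BPL had 2 genes higher and 3 lower, against 1.87% and 3.3% of all genes, BTT 1 and 1, against 1.16% and 5.15%, CPI 1 and 1, against 1.16% and 3.65%, and CMP 1 and 0, against 3.71% and 1.78%. The genes were HYP2 (0.94 ± 0.24), SUI2 (0.66 ± 0.18), TIF4632 (-1.84 ± 0.42), HEF3 (-1.40 ± 0.32) and ANB1 (-0.95 ± 0.26) in BPL. They were SUI2 (0.60 ± 0.17) and TIF4632 (-1.37 ± 0.39) in BTT, TIF34 (0.77 ± 0.16) and TIF4632 (-1.41 ± 0.40) in CPI, and TIF4632 (2.46 ± 0.43) in CMP. No call of these 4 isolates held in every leave-one-out fit: without an isolate's own replicate 1 or 2 the count was 0 in BPL, BTT and CPI, and it was 0 in CMP without CMP replicate 1. With total reads as the scale the splits were 0 higher and 4 lower in BPL, 0 and 3 in BTT, and 6 and 0 in CMP.

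eIF2 is made of 1 copy of each of its 3 subunits, and per unit length the 3 genes had nearly the same number of footprints while their mRNA levels differed. Per-length levels are reads per codon, scaled to the same sum over all open reading frames in each library (TPM), and their mean and SD are over the 8 isolates. In footprints SUI2 averaged 195, SUI3 184 and GCD11 184 TPM, and in mRNA they averaged 114, 300 and 156 TPM. The log2 ratio of SUI2 to GCD11 was 0.08 ± 0.22 in footprints and -0.64 ± 0.53 in mRNA, and that of SUI3 to GCD11 was 0.01 ± 0.17 in footprints and 0.97 ± 0.41 in mRNA (SD, n = 8 isolates). In CQC the SUI2 to GCD11 ratio was -0.15 in footprints and -1.24 in mRNA, in BED 0.28 and 0.19, and in AMH 0.46 and -0.08.

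SUI2 (YJR007W), on chromosome X from 451020 to 451934 (sacCer3 coordinates, as all below, from the RefSeq gene table), was the eIF2 gene whose mRNA differed the most. Its mRNA stood at 217 and 223 normalised CPM in AMH, 196 and 196 in BED, 95.4 and 99 in CMP, 85.6 and 92 in CPI, 71.8 and 56.1 in BTT, 63.4 and 61.8 in BAN, 49.2 and 53.9 in BPL, and 36.2 and 38.5 in CQC. Its footprints stood at 214 and 331 in AMH, 298 and 246 in BED, 222 and 203 in BTT, 196 and 185 in CMP, 179 and 191 in BAN, 172 and 183 in BPL, 154 and 185 in CPI, and 132 and 139 in CQC. By isolate mean AMH and BED were the highest in both assays, although the first AMH footprint library lay within the range of BTT, and CQC was below every other library in both. SUI2 spanned 1.01 on the log2 scale in footprints and 2.56 in mRNA. The TE of SUI2 fell by 0.97 ± 0.18 in AMH (adjusted p = 0.000638) and by 0.84 ± 0.17 in BED (adjusted p = 0.00367), and rose by 0.75 ± 0.22 in CQC (adjusted p = 0.0304), 0.66 ± 0.18 in BPL (adjusted p = 0.0307) and 0.60 ± 0.17 in BTT (adjusted p = 0.0309). The AMH call held in all 16 leave-one-out fits. The BED call was lost without BED replicate 1 (-0.99, adjusted p = 0.0539) or 2 (-0.71, adjusted p = 0.239). The CQC call was lost without CQC replicate 1 (0.73, adjusted p = 0.258) or 2 (0.73, adjusted p = 0.218), BTT replicate 1 (0.66, adjusted p = 0.075), BED replicate 2 (0.72, adjusted p = 0.0518) or CMP replicate 2 (0.72, adjusted p = 0.0516). The BPL and BTT calls were lost too, at 0.63 (adjusted p = 0.289) and 0.67 (adjusted p = 0.322) without BPL replicates 1 and 2 in turn, and at 0.77 (adjusted p = 0.0931) and 0.50 (adjusted p = 0.426) without BTT replicates 1 and 2 in turn.

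SUI3 (YPL237W) was higher in mRNA in BAN (0.79 ± 0.092), AMH (0.75 ± 0.091) and CMP (0.70 ± 0.092) and lower in CPI (-0.69 ± 0.10), BPL (-0.60 ± 0.10) and CQC (-0.57 ± 0.10), and these 6 calls held in every leave-one-out fit, while a fall of 0.34 in BTT did not. In footprints its levels lay between 127 and 248 normalised CPM in all 16 libraries, and the 1 call was a fall of 0.42 ± 0.15 in CPI, which was lost in most leave-one-out fits (-0.32, adjusted p = 0.322, without CPI replicate 1). GCD11 was higher in AMH mRNA (0.91 ± 0.091) with a fall of 0.82 ± 0.16 in TE (adjusted p = 0.00151), which became -0.68 (adjusted p = 0.0563) without AMH replicate 1. By their means over the isolates, the genes of eIF2B, the exchange factor, had lower per-length levels than those of its substrate eIF2 in both assays. They averaged 29.8 (GCD6) to 63.2 TPM (GCD7) in footprints and 66.6 (GCD2) to 103 TPM (GCN3) in mRNA. Against SUI2 this did not hold in the mRNA of every isolate. In CQC SUI2 was at 38.5 TPM, below the eIF2B genes at 41.3 (GCD1) to 79.6 (GCN3), and in BTT and BPL it was below most of them. The eIF2B genes did not come closer together per length in footprints as those of eIF2 did. Against GCD1, the log2 ratios in footprints and mRNA were 0.54 and 0.17 for GCD7, -0.35 and 0.06 for GCD2, and -0.57 and 0.45 for GCD6. Only that of GCN3 came closer to even, at -0.07 and 0.69. In BED all 5 eIF2B genes were higher in mRNA, and in BAN 4 were lower, led by GCD1 (-1.08 ± 0.10) and GCD6 (-1.05 ± 0.11).

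The 3 large eIF3 subunits also came closer per length in footprints, and they fell together in CQC. RPG1, PRT1 and NIP1 averaged 92.4, 98.5 and 104 TPM in footprints and 88.0, 129 and 195 TPM in mRNA. The smaller subunits TIF34, TIF35 and HCR1 averaged 173, 175 and 172 TPM in footprints and 194, 356 and 128 TPM in mRNA. Their footprint means were close, but single isolates differed. In that order the 3 genes were at 180, 173 and 187 TPM in AMH footprints, but at 72.9, 156 and 68.2 in CQC. They were at 200, 146 and 303 in BED and 215, 318 and 144 in CMP. Against PRT1, the log2 ratio was -0.05 ± 0.27 for RPG1 and 0.10 ± 0.21 for NIP1 in footprints, and -0.56 ± 0.18 and 0.61 ± 0.20 in mRNA (SD, n = 8 isolates). Between these 3 genes the mean ratios were closer to 0 in footprints than in mRNA. The ratio of TIF35 to PRT1 also came closer, at 0.89 ± 0.69 in footprints and 1.54 ± 0.58 in mRNA. Those of TIF34 (0.87 ± 0.44 and 0.55 ± 0.63) and HCR1 (0.82 ± 0.46 and -0.24 ± 0.81) were further from 0 in footprints.

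**Figure D3:**
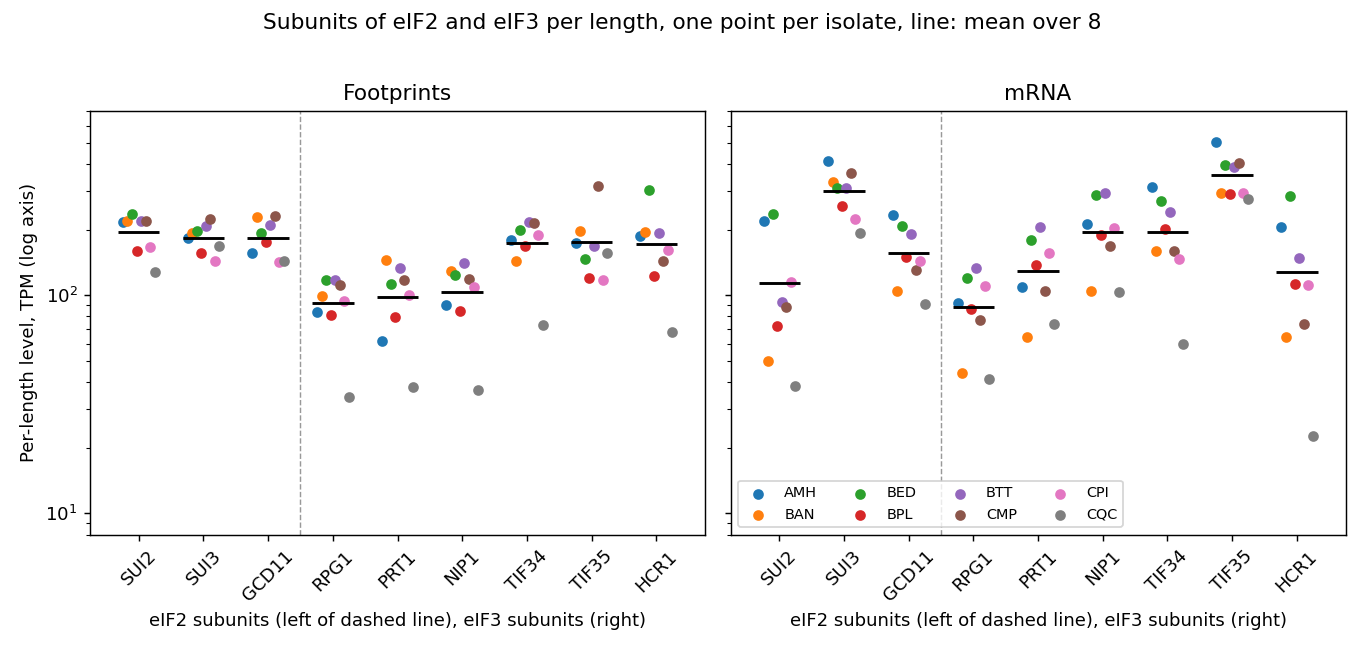
Per-length level (TPM, log axis) of the eIF2 subunit genes (left of the dashed line) and eIF3 subunit genes (right of it) in footprints and in mRNA. Each point is the mean of 2 libraries of an isolate and the line is the mean over 8 isolates; the 3 eIF2 lines are level in footprints at 184 to 195 TPM and spread from 114 to 300 TPM in mRNA, and CQC is the lowest point of RPG1, PRT1 and NIP1 in footprints.

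In CQC footprints NIP1 fell by 1.56 ± 0.23, RPG1 by 1.5 ± 0.19, PRT1 by 1.37 ± 0.23, HCR1 by 1.35 ± 0.22 and TIF34 by 1.28 ± 0.21, while TIF35 was at -0.07 and was not called. The mRNA falls in CQC were 0.81 ± 0.12 for NIP1, 0.99 ± 0.11 for RPG1, 0.67 ± 0.11 for PRT1, 2.35 ± 0.12 for HCR1 and 1.65 ± 0.11 for TIF34. The 10 calls held in every leave-one-out fit. The TE of none of RPG1, PRT1, NIP1 or TIF35 passed the test among isolates (adjusted p = 0.181, 0.136, 0.218 and 0.366), while that of TIF34 (adjusted p = 0.000314) and HCR1 (adjusted p = 0.0026) did.

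HCR1 (YLR192C), an eIF3-associated protein also known to act in ribosome recycling, had the second widest mRNA range of the 39 genes, 3.43 on the log2 scale. Its mRNA was at 213 and 196 normalised CPM in BED, 161 and 196 in AMH, 91.4 and 85.7 in BTT, 74 and 74 in CPI, 71.6 and 68.6 in CMP, 66.7 and 72.3 in BPL, 73.8 and 64.5 in BAN, and 19 and 19.1 in CQC. Its footprints were at 321 and 290 in BED, 205 and 192 in AMH, 167 and 157 in BTT, 152 and 137 in BAN, 139 and 148 in CPI, 114 and 122 in BPL, 113 and 106 in CMP, and 76.2 and 50.8 in CQC. BED and AMH were above and CQC was below every other isolate in both assays, and CQC was closer to the rest in footprints. The TE of HCR1 rose by 1.0 ± 0.24 in CQC (adjusted p = 0.0138) and fell by 0.80 ± 0.16 in AMH (adjusted p = 0.00156). The CQC call was lost without CQC replicate 1 (0.69, adjusted p = 0.453) and the AMH call without AMH replicate 2 (-0.59, adjusted p = 0.136).

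Among the factors of start codon choice, SUI1 and FUN12 departed from the pattern of the rest. SUI1 (YNL244C), which holds the scanning ribosome open until a start codon is found, had 249 and 183 normalised CPM in CQC footprints, against 217 and 283 in AMH, 185 and 204 in BED, and 27.3 to 150 in the other 5 isolates. It was thus among the highest in CQC footprints, at 0.68 ± 0.19 (adjusted p = 0.00375), while its CQC mRNA did not pass the test (-0.04 ± 0.13). That call was lost without CQC replicate 1 (0.44, adjusted p = 0.179). FUN12 was lowest in CQC and AMH. Its footprints were at 76.2 and 88 in CQC and 92.1 and 104 in AMH, against 137 to 339 in the other 6 isolates. In mRNA BAN (289 and 329) was close to AMH (284 and 195) and CQC (254 and 274). Its differences in CQC were -0.81 ± 0.13 in mRNA and -1.44 ± 0.21 in footprints. Its TE did not pass the test among isolates (adjusted p = 0.157). TIF11 fell by 1.12 ± 0.13 in CQC mRNA, and TIF5 had no isolate called beyond 0.54 in either assay.

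Among the genes of mRNA recruitment, the eIF4G paralogue TIF4632 (YGL049C) had footprints that did not follow its mRNA or agree between libraries. Its mRNA was at 158 and 165 normalised CPM in BTT, 145 and 134 in CPI, 120 and 128 in BPL, 122 and 116 in BED, 94 and 102 in AMH, 73.3 and 55.6 in BAN, 62 and 67.8 in CMP, and 42.4 and 35.2 in CQC. Its footprints were at 1030 and 820 in CMP, 1120 and 629 in BAN, 76.2 and 592 in CQC, 365 and 144 in AMH, 250 and 204 in BTT, 177 and 206 in CPI, 160 and 160 in BED, and 130 and 132 in BPL. The 3 isolates with the least TIF4632 mRNA held the 5 highest footprint libraries, and the CQC libraries lay far apart, 1 of them below every other library of the set. These are also the isolates with the fewest footprint reads (27621 to 275549 a library), and the part of depth in these values was not tested.

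TIF4632 differed in TE by 2.46 ± 0.43 in CMP (adjusted p = 0.000417), 2.44 ± 0.50 in BAN (adjusted p = 0.00102) and 1.66 ± 0.44 in CQC (adjusted p = 0.0169). Without CQC replicate 2 the CQC value turned to -0.67 (adjusted p = 0.536), without BAN replicate 1 the BAN value was 2.07 (adjusted p = 0.21), and without CMP replicate 1 the CMP value was 2.22 (adjusted p = 0.0628). The falls in TIF4632 TE called in BED, BPL, BTT and CPI are each set against a mean that holds those 3 isolates, and none held in every leave-one-out fit. In footprints the CMP rise of 1.88 ± 0.32 held in every leave-one-out fit, and the BAN rise of 1.85 ± 0.41 became 1.25 (adjusted p = 0.586) without BAN replicate 1. The other eIF4G gene, TIF4631 (YGR162W), had footprints of 312 and 321 normalised CPM in BED, 294 and 274 in BTT, 243 and 215 in BPL, 149 and 264 in AMH, 203 and 196 in CPI, 179 and 191 in BAN, 255 and 97 in CMP, and 100 and 112 in CQC. Its mRNA was at 335 to 344 in CQC, against 373 to 672 in the other 7, and its TE did not pass the test among isolates (adjusted p = 0.419). TIF4632 made up 33.5% (BED) to 84.8% (CMP) of the footprints on the pair, with 81.5% in BAN, and 10.2% (CQC) to 25.4% (CPI) of its mRNA reads, as isolate means.

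DED1 (YOR204W), a helicase that unwinds long 5′ leaders, ran opposite to most called factors in the mRNA of BAN, CQC, AMH, BED and BTT. Its BTT call (-0.55 ± 0.13) did not hold in every leave-one-out fit. With TMM scaling DED1 did not run opposite to most called factors in CMP, BPL or CPI. DED1 mRNA was at 1810 and 2680 normalised CPM in BAN, 1570 and 1420 in CMP and 1360 and 1280 in CQC, against 612 to 799 in the other 5 isolates. This split of the isolates was read from the same values. The differences were 1.38 ± 0.11 in BAN, 0.71 ± 0.12 in CMP and 0.50 ± 0.12 in CQC, and -0.72 ± 0.13 in BED. In footprints DED1 was at 1280 and 1020 in CMP, 1040 and 704 in CQC, and 979 and 656 in BAN, against 517 to 777 in the other 5, with overlap. The CMP rise in footprints of 0.78 ± 0.16 was lost without CMP replicate 1 (0.61, adjusted p = 0.0992). The TE of DED1 fell by 1.11 ± 0.23 in BAN (adjusted p = 0.0012), or by 0.62 without BAN replicate 2 (adjusted p = 0.143).

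The cap-binding protein gene CDC33 was higher in AMH (1.05 ± 0.098 in mRNA and 0.89 ± 0.14 in footprints) and lower in CQC (-0.67 ± 0.11 and -0.69 ± 0.19). PAB1 fell by 1.22 ± 0.12 in CQC mRNA and 1.05 ± 0.19 in CQC footprints. The eIF4A genes TIF1 and TIF2 encode the same protein, and TIF1 held 42.7% to 49.4% of their reads in mRNA and 48.6% to 49.5% in footprints. Their mRNA was at 385 and 453 normalised CPM (TIF1) and 397 and 462 (TIF2) in CQC, against 719 to 1450 (TIF1) and 912 to 1800 (TIF2) in the other 7. Their footprints were at 1000 and 1100 (TIF1) and 1050 and 1120 (TIF2) in CQC, against 1460 to 2320 and 1480 to 2420 in the other 7. CQC was below every other library for both genes in both assays. TIF3 fell by 0.59 ± 0.10 in CQC mRNA.

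The elongation genes held the highest per-length levels of the set, those of TEF1 and TEF2, but also some of the lowest, those of HEF3. Per length in footprints TEF1 averaged 11300 and TEF2 11200 TPM, HYP2 2750, EFT2 1570, EFT1 1560, EFB1 1260, ANB1 988, YEF3 979, TEF4 414, CAM1 339 and HEF3 34.4 TPM. TEF1 and TEF2 encode the same eEF1A protein, and EFT1 and EFT2 the same eEF2 protein. TEF1 held 49.5% to 52.7% of the pair's reads in mRNA and 49.5% to 51.1% in footprints, and EFT1 held 44.2% to 56.2% and 49.2% to 50.4%. The near-even footprint shares leave it unknown how reads common to both copies were assigned, so the copies are described together.

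TEF1 (YPR080W) mRNA was at 5210 and 5890 normalised CPM in CQC, against 19600 and 20900 in AMH, 13300 and 13600 in BED, 12000 and 11200 in CMP, 9530 and 12100 in BAN, 9180 and 9110 in CPI, 8850 and 8740 in BPL, and 8140 and 7880 in BTT. TEF1 footprints were at 12100 and 11300 in CQC, against 24800 and 27800 in AMH, 22600 and 25200 in BED, 17900 and 18400 in CPI, 18700 and 16000 in CMP, 16800 and 16200 in BPL, 14800 and 15300 in BTT, and 14900 and 12800 in BAN. AMH was above and CQC below all other isolates in mRNA, and in footprints AMH overlapped BED. TEF2 ranged from 4800 (CQC) to 21300 (AMH) in mRNA and from 11000 (CQC) to 27500 (AMH) in footprints, and its differences were 1.21 ± 0.10 and 0.69 ± 0.13 in AMH and -1.09 ± 0.13 and -0.66 ± 0.15 in CQC.

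EFT1 (YOR133W) mRNA was at 797 and 853 normalised CPM in CQC, against 5920 and 6230 in BED, 5080 and 5170 in CPI, 4840 and 4590 in AMH, 3610 and 3680 in BTT, 3520 and 3540 in BPL, 3320 and 3420 in CMP, and 2310 and 2820 in BAN. EFT1 footprints were at 1440 and 1250 in CQC, against 6570 and 7480 in BED, 5690 and 5970 in CPI, 5340 and 5400 in BPL, 5060 and 5380 in BTT, 4050 and 4730 in AMH, 4030 and 3550 in CMP, and 3780 and 3340 in BAN. CQC lay far below the next isolate, BAN, in both assays. EFT2 was at 933 and 1020 in CQC mRNA, against 1780 to 5890 in the other 7, and at 1460 and 1290 in CQC footprints, against 3360 to 7420. In CQC footprints the eEF2 gene EFT1 was at -1.87 ± 0.17 and the eEF1A gene TEF1 at -0.65 ± 0.15, a difference between genes that was not tested.

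The reads on the eEF1B gamma subunit genes were split between TEF4 and CAM1 in shares that differed among isolates, a description with no test. TEF4 (YKL081W) mRNA was at 219 and 313 normalised CPM in AMH, 256 and 248 in BED, 175 and 176 in BTT, 151 and 162 in CPI, 108 and 102 in CMP, 88.8 and 84.7 in BPL, 51.7 and 58.7 in BAN, and 42.1 and 32.2 in CQC. TEF4 footprints were at 965 and 1010 in AMH, 848 and 928 in BED, 718 and 744 in BTT, 617 and 697 in CPI, 480 and 406 in CMP, 441 and 412 in BPL, 441 and 355 in BAN, and 200 and 220 in CQC. The order of the isolates was the same in both assays, and CQC was the lowest in each.

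CAM1 (YPL048W) mRNA was at 295 and 274 in CPI, 245 and 274 in AMH, 204 and 208 in BTT, 182 and 198 in BPL, 184 and 190 in BED, 144 and 148 in CQC, 134 and 136 in CMP, and 68.7 and 110 in BAN. CAM1 footprints were at 652 and 609 in BPL, 637 and 574 in CPI, 536 and 575 in BTT, 488 and 497 in BED, 553 and 409 in CQC, 472 and 467 in AMH, 356 and 344 in CMP, and 400 and 191 in BAN. In contrast to TEF4, CAM1 in CQC lay within the range of the other isolates. CAM1 made up 79.8% ± 3.3 of the pair's mRNA reads and 69.2% ± 5.9 of its footprints in CQC, against 42.6% to 68.6% and 32.2% to 59.7% in the other isolates (SD, n = 2). The catalytic subunit gene EFB1 fell by 1.62 ± 0.13 in CQC mRNA and 1.51 ± 0.20 in footprints. Introns of EFB1 and TEF4 hold the small nucleolar RNA genes SNR18 and SNR38, whose reads could not be set apart from these counts.

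The eEF3 pair showed the largest difference of the set. HEF3 (YNL014W), on chromosome XIV from 606319 to 609453, was at 1220 and 1350 normalised CPM in CQC mRNA, against 186 and 195 in CMP, 118 and 184 in BAN, 83.5 and 90.6 in BPL, 94.3 and 60.3 in CPI, 18.9 and 23.2 in BTT, 15.2 and 13.8 in BED, and 13.3 and 10.6 in AMH. Its footprints were at 589 and 596 in CQC, against 113 and 168 in CMP, 72.1 and 81.1 in CPI, 56.1 and 40.4 in BED, 38.6 and 54.2 in AMH, 31.4 and 37.8 in BPL, 31.2 and 28.6 in BTT, and 55.1 and 0 in BAN. CQC stood above every other library in both assays. The difference was 4.71 ± 0.12 in mRNA (adjusted p = 6.02e-13) and 3.53 ± 0.16 in footprints (adjusted p = 4.69e-16).

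YEF3 (YLR249W), the main eEF3 gene, on chromosome XII from 636780 to 639914, was lowest in CQC. Its mRNA was at 2840 and 2570 in CQC, against 6530 and 7130 in BED, 5970 and 6210 in AMH, 5600 and 6320 in CMP, 5650 and 6130 in CPI, 4950 and 4770 in BTT, 4300 and 5410 in BAN, and 4670 and 4340 in BPL. Its footprints were at 1390 and 1510 in CQC, against 4270 and 5070 in BED, 4230 and 4900 in CMP, 3410 and 4350 in AMH, 3460 and 4120 in CPI, 3540 and 3170 in BTT, 3390 and 3160 in BPL, and 3380 and 2790 in BAN. The fall was 1.03 ± 0.12 in mRNA (adjusted p = 3.03e-06) and 1.38 ± 0.17 in footprints (adjusted p = 9.74e-08).

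HEF3 thus made up 32.3% ± 3.1 of the mRNA reads and 29.1% ± 1.1 of the footprints on the pair in CQC, against isolate means of 0.197% to 3.1% and 0.805% to 2.95% in the other 7 (SD, n = 2). The 2 genes are similar in sequence, and reads common to both could have been given to either. In mRNA, HEF3 was also called higher in CMP and BAN and lower in AMH (-3.02 ± 0.22), BED (-2.69 ± 0.21) and BTT. BAN had 4 and 0 HEF3 footprint reads, and some of the HEF3 values rested on them. The TE of HEF3 in BED (2.06 ± 0.32) held in every leave-one-out fit, and in AMH its rise was lost without AMH replicate 2 (1.94, adjusted p = 0.0805). In CQC the TE was -1.18 ± 0.27 (adjusted p = 0.00608), but 0.33 (adjusted p = 1.0) without BAN replicate 1, -1.25 (adjusted p = 0.069) without CQC replicate 1 and -1.14 (adjusted p = 0.0692) without CQC replicate 2. The footprint differences of HEF3 in BED (-0.63), BPL (-1.13) and BTT (-1.39) likewise came to 0.51, 0.05 and -0.20 without BAN replicate 1, and none was then called.

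HEF3 is known as a gene of zinc-limited cells, and a list of 10 zinc-responsive genes was set beside it. The list was chosen with earlier results of these data known. In mRNA 6 of them were higher and 3 lower in CQC, against 35.6% and 37.2% of all genes, 7 and 2 in CMP, against 27.6% and 26.2%, and 7 and 2 in BAN, against 34% and 33.1%. These are the 3 isolates with the most HEF3 mRNA. The list's median difference was 0.67 in CQC, 1.78 in CMP and 0.91 in BAN, against 0.02, 0.00 and -0.01 over all genes. In the 2 genes of widest range the order differed from that of HEF3. The zinc transporter gene ZRT1 averaged 1460 normalised CPM in CQC, 7460 in CMP and 7140 in BAN, and ZPS1 averaged 9.71 in CQC, 2620 in CMP and 405 in BAN. CQC therefore had the most HEF3 with less ZRT1 than CMP or BAN. ZAP1, ZRT3, ADH4 and MNT2 were also lower in CQC than in CMP and BAN. The rest of the list went the other way: IZH1 averaged 460 in CQC, 61.0 in CMP and 85.0 in BAN, and ZRT2, IZH2 and ZRG8 were also higher in CQC than in both.

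The reads for eIF5A, which relieves ribosomes at stretches such as consecutive prolines, came from HYP2 and ANB1 in proportions that differed among isolates. HYP2 (YEL034W), on chromosome V from 85676 to 86149, had mRNA at 1450 and 1940 normalised CPM in AMH, 615 and 498 in BED, 563 and 540 in CQC, 458 and 503 in CPI, 501 and 393 in BTT, 432 and 366 in CMP, 236 and 300 in BAN, and 178 and 163 in BPL. ANB1 (YJR047C), on chromosome X from 524908 to 525381, had mRNA at 412 and 369 in BPL, 262 and 466 in AMH, 359 and 363 in BED, 323 and 346 in BTT, 137 and 137 in CPI, 80.9 and 60 in CQC, 55.6 and 69.2 in BAN, and 41.7 and 53.1 in CMP. AMH stood far above the rest in HYP2 and BPL alone had more ANB1 than HYP2, while CQC, BAN and CMP shared the lowest ANB1 levels.

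In footprints HYP2 was at 2510 and 2310 in CQC, 2050 and 2640 in AMH, 1550 and 1400 in BED, 1570 and 1010 in CMP, 1390 and 1160 in BTT, 978 and 1080 in CPI, 908 and 876 in BPL, and 1210 and 520 in BAN. ANB1 footprints were at 956 and 836 in BED, 517 and 859 in AMH, 665 and 696 in BTT, 628 and 683 in BPL, 365 and 457 in CQC, 538 and 219 in BAN, 292 and 315 in CPI, and 219 and 194 in CMP. HYP2 was above ANB1 in every footprint library, BPL included, and in BAN both genes were lower in the second library than in the first. CQC, low in most factors, was level with AMH in HYP2 footprints, at 0.94 ± 0.17 (adjusted p = 2.66e-05).

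ANB1 made up 69.5% of the mRNA reads on the pair in BPL, 43.0% in BTT, 39.5% in BED, 22.3% in CPI, 18.9% in BAN, 17.4% in AMH, 11.3% in CQC and 10.7% in CMP. Its share of footprints was 42.3% in BPL, 35.0% in BTT, 37.8% in BED, 22.8% in CPI, 30.1% in BAN, 22.3% in AMH, 14.6% in CQC and 14.2% in CMP, a narrower span. The TE of HYP2 fell by 1.24 ± 0.24 in AMH (adjusted p = 0.00105), where its mRNA was highest, and this held in every leave-one-out fit. Its TE rose by 0.94 ± 0.24 in BPL (adjusted p = 0.0195), where its mRNA was lowest, but not without BPL replicate 1 (0.98, adjusted p = 0.215) or 2 (0.90, adjusted p = 0.315). HYP2 spanned 1.48 on the log2 scale in footprints and 3.31 in mRNA, and ANB1 2.12 and 3.04. The 2 genes are near-identical over much of their coding sequence, so some of their reads may have been exchanged.

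**Figure D4:**
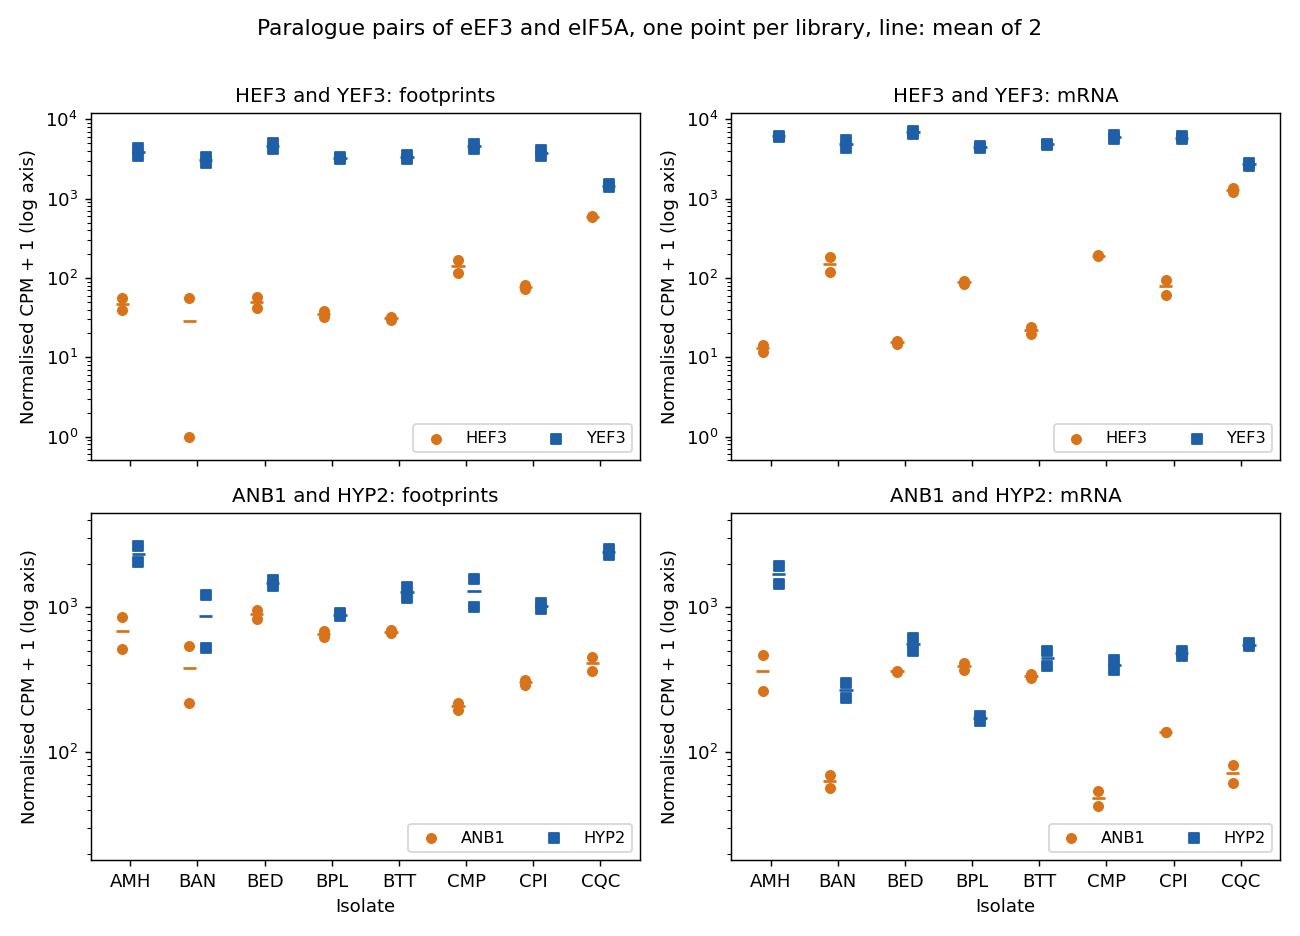
Normalised CPM plus 1 (log axes) of the eEF3 genes HEF3 (circles) and YEF3 (squares), above, and of the eIF5A genes ANB1 (circles) and HYP2 (squares), below, in footprints (left) and mRNA (right). Each point is 1 library and each line the mean of an isolate's 2; HEF3 is nearest to YEF3 in CQC, at 589 and 596 in footprints, and ANB1 lies above HYP2 only in BPL mRNA.

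A list of 8 genes under heme control, chosen with earlier results of these data known, was set beside ANB1. Most are hypoxic genes like ANB1, but the list also holds their repressor gene ROX1, which the counts below include. ROX1 mRNA averaged 20.9 normalised CPM in BPL, against 50.0 in CMP, 43.4 in BAN and 84.1 in CQC. In BPL 6 of the 8 were higher in mRNA and 0 lower, against 27.6% and 19.1% of all genes, with a median difference of 1.26, against 0.04 over all genes. In CMP 2 were higher and 6 lower, against 27.6% and 26.2% of all genes, and in BAN 2 higher and 5 lower, against 34% and 33.1%, with medians of -1.54 and -1.34. CQC, also low in ANB1, had 4 higher and 3 lower, near the 35.6% and 37.2% of all genes. The cell wall mannoprotein gene DAN1 averaged 883 normalised CPM in BPL, against 2.4 in CMP, 10.2 in BAN and 111 in CQC, and CYC7, the hypoxic form of cytochrome c, 69.7 in BPL, against 96.6 in CMP, 512 in BAN and 104 in CQC. ANB1 mRNA was also called higher in AMH, BED and BTT, and there these 2 genes went apart. In that order DAN1 rose by 1.13 ± 0.16, 1.4 ± 0.16 and 2.02 ± 0.15 in mRNA, while CYC7 was at -3.12 ± 0.29, -4.24 ± 0.32 and -1.45 ± 0.24.

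The release factors spanned 0.77 (SUP45) and 1.35 (SUP35) on the log2 scale in footprints and 1.07 and 0.84 in mRNA. SUP45 mRNA was higher in AMH (0.62 ± 0.089) and lower in CQC (-0.60 ± 0.10) and BPL (-0.54 ± 0.099). SUP35 (YDR172W) was higher in BED, by 0.56 ± 0.089 in mRNA and 0.85 ± 0.14 in footprints. SUP45 footprints lay between 200 and 379 normalised CPM in all 16 libraries, and those of SUP35 between 140 and 500. Per length SUP45 averaged 180 TPM and SUP35 127 TPM in footprints, although the 2 proteins act as a complex.

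The spread of a factor over the isolates was narrower in footprints than in mRNA for 27 of the 39 genes, where 43.6% of 4801 genes with reads in every isolate were. Without BAN it was narrower for 26, where 45.6% of genes were. The median range of the 39 genes was 1.48 in footprints and 1.61 in mRNA on the log2 scale, against 2.07 and 1.84 over the 4801 genes. Counting error widens a range in the shallower footprint libraries, so these are descriptions with no test. The ranges narrowed the most in HEF3 (4.43 in footprints, 6.75 in mRNA), HYP2, SUI2 and HCR1 (2.27 and 3.43). EFT1 (2.39 and 2.88) and TEF4 (2.23 and 2.84) narrowed less. Ranges were wider in footprints in TIF4632 (2.82 and 2.06), NIP1 (1.90 and 1.25), TIF4631 (1.58 and 0.94), PRT1 (1.69 and 1.06), RPG1 (1.91 and 1.31) and YEF3 (1.69 and 1.34), among others, with the same values for these 6 without BAN. SUI1 spanned 2.18 in footprints and 1.10 in mRNA, but 1.19 and 1.10 without BAN, which had 6 and 1 SUI1 footprint reads.

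**Figure D5:**
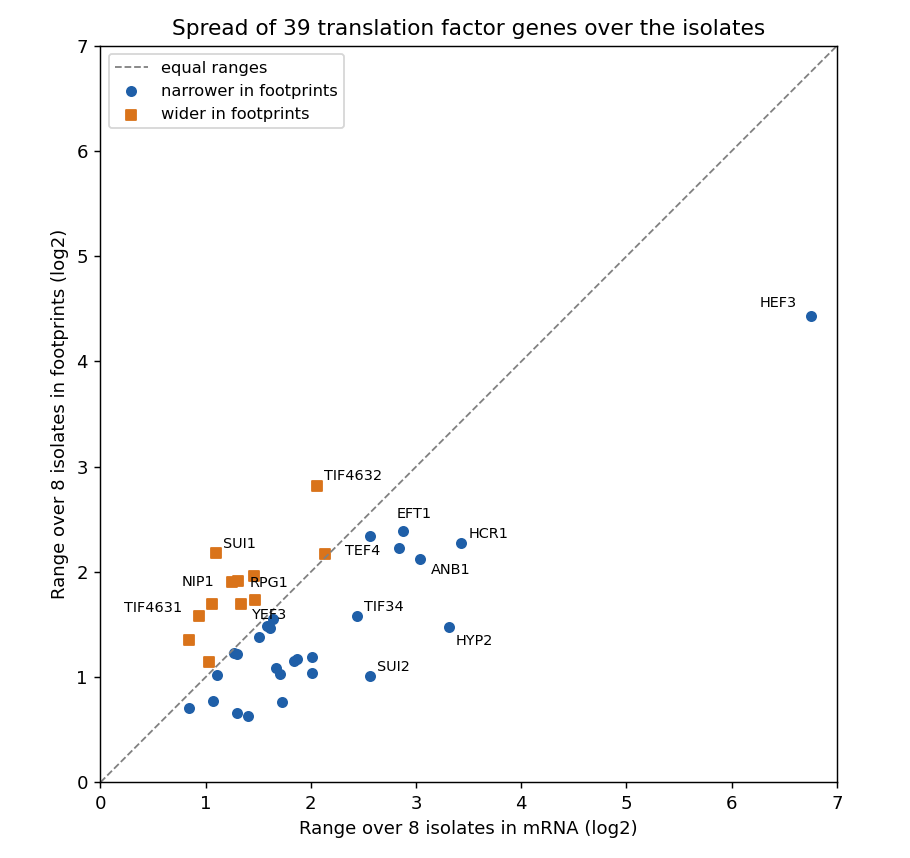
Range of each of the 39 genes over the 8 isolates (log2 of the highest over the lowest isolate mean) in footprints (vertical) against mRNA (horizontal), with the line of equal ranges. Circles are the 27 genes narrower in footprints and squares the 12 that were wider; SUI2 and HYP2 lie well below the line, at 1.01 and 1.48 in footprints.

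Average TE also differed widely among the factors. The log2 ratio of mean footprint to mean mRNA level over the 8 isolates was highest in TEF4 (2.06), TIF4632 (1.93), CAM1 (1.37), HYP2 (1.34), ANB1 (1.25) and SUI2 (0.98), and lowest in GCD6 (-1.36, at the 15.8th percentile of 4801 genes), TIF4631 (-1.22), TIF11 (-1.12) and FUN12 (-1.08). For TIF4632 it rested on BAN, CMP and CQC, with mean footprint against mRNA levels of 873 against 64.4, 926 against 64.9 and 334 against 38.8 normalised CPM, while BPL had 131 against 124 and BED 160 against 119. Genes of 1 complex stood apart, as SUI2 (0.98), GCD11 (0.43) and SUI3 (-0.57) did.

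Regulators of initiation outside the 39 genes were set beside them as a list of 10, of which 8 differed among isolates in mRNA, 8 in footprints and 1 in TE, against 95.7%, 73.1% and 29.2% of all genes. In CQC 6 were lower and 1 higher in mRNA, against 37.2% and 35.6% of all genes. DBP1, the paralogue of DED1, averaged 949 normalised CPM in CQC mRNA, against 13.9 in AMH and 50.1 to 138 in the other 6 isolates, a difference of 3.93 ± 0.12. Its footprints averaged 448 in CQC, against 0 to 66.0 in the other 7. In CQC, then, HEF3 and DBP1 were both far above the other isolates. This did not extend to other minor paralogues: ANB1 (-1.38 ± 0.19) and TIF4632 (-1.43 ± 0.12) were lower in CQC mRNA. GCN1, which relays amino acid shortage to the eIF2 kinase GCN2, averaged 161 in CQC mRNA, 292 in BAN and 382 in CMP, against 875 to 1160 in the other 5. It fell by 2.23 ± 0.12 in CQC mRNA and by 2.55 ± 0.29 in footprints.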

How the data were processed

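Messenger RNA and ribosome footprints were sequenced from 8 isolates, with 2 libraries of each assay per isolate. Per the file headers, the authors deposited a table of raw counts, 1 column per library and 1 line per open reading frame, with a codon number beside each. That number, taken here as the length, was the reference gene length in codons less 10 for 94.5% of 6005 gene records. It was so for 37 of the 39 factors. The exceptions were EFB1 and TEF4, whose reference gene lengths include introns. CASAVA 1.8, STAR 2.7.0a and the sacCer3 build are named in the submitters' processing notes. How reads matching several copies were counted is not given in the sources used here.

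Counts were tested with edgeR 4.0.16 (limma 3.58.1, R 4.3.3): TMM scaling within each assay, filterByExpr with a minimum count of 10, the quasi-likelihood F-test, and Benjamini-Hochberg adjustment over all genes at 0.05. Each isolate was set against the mean of the other 7, and all 8 were compared at once. TE was the assay by isolate interaction. The tests were checked on simulated data. Alternatives were DESeq2 1.42.0, its size factors, total counts, limma-voom, no low-count filter, a length-trend correction and a replicate block. Others were summing the reads of identical copies, leaving out BAN, and leaving out each isolate's replicate 1 or 2. Named were all 39 factors by role, the paralogue pairs and 6 widest mRNA ranges in every library, up to 3 called genes per isolate, layer and direction, and the 2 widest genes of each other list. The members and lists were chosen with earlier results of these data known. Values after ± are SEs of the fitted differences or, where marked, SDs over isolates or libraries. No sequence is printed.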

Additional observations from a re-analysis of the deposited data

How the results depend on the processing

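Of the 364 calls of single factors against the other 7 isolates, 186 kept their call in all 16 fits that each left out 1 replicate number of an isolate. In those fits the calls among the 39 genes ranged in mRNA from 24 to 34 in AMH, 24 to 27 in BAN, 28 to 35 in BED, 9 to 27 in BPL, 10 to 23 in BTT, 10 to 22 in CMP, 12 to 24 in CPI and 31 to 36 in CQC. In footprints they ranged from 9 to 22 in AMH, 11 to 27 in BED, 2 to 12 in BPL, 5 to 15 in BTT, 4 to 8 in CMP, 3 to 13 in CPI and 23 to 26 in CQC, with 1 in BAN. In TE they ranged from 3 to 15 in AMH, 5 to 13 in BAN, 1 to 5 in BED, 0 to 5 in BPL, 0 to 4 in BTT, 0 to 2 in CMP, 0 to 4 in CPI and 1 to 10 in CQC. Genes differing among isolates numbered 39 in mRNA, 31 to 37 in footprints and 12 to 19 in TE. With total reads as the scale, calls came to 15 in BED footprints (26 with TMM) and in TE to 19 in AMH (12), 16 in BED (4), 6 in CMP (1) and 17 in CQC (7), and that scale moved the median TE difference of all genes by -0.38 (BED) to 0.60 (BAN). DESeq2's test gave 26 calls in CMP mRNA (16 with edgeR), 3 in BAN footprints (1), and in TE 8 in BED, 9 in BPL, 2 in CMP and 12 in CQC, and DESeq2 size factors gave 2 in CMP TE. limma-voom gave 17 in BAN mRNA (26), and in TE 4 in BAN, 9 in BED, 12 in BPL, 7 in BTT and 7 in CPI. Removing a length trend gave 5 calls in BTT footprints (14), and in TE 7 in BAN, 2 in BPL and 2 in CMP. It turned the sign of NIP1 (0.01) and TIF4631 (0.05) in BAN mRNA, RPG1 in BTT mRNA (-0.02), and SUI1 (-0.08) and TIF11 (-0.00) in CMP mRNA. Without BAN there were 26 calls in CMP mRNA, and in TE 2 in BED, 1 in BTT, 3 in CMP and 1 in CPI. Leaving out 1 replicate turned the sign of HEF3 without BAN replicate 1, with ranges over all 16 fits of -0.86 to 0.51 in BED footprints, -1.28 to 0.05 in BPL footprints, -1.53 to 0.14 in BPL TE and -1.34 to 0.33 in CQC TE. TIF4632 in CQC TE ranged from -0.67 without CQC replicate 2 to 2.58 without CQC replicate 1. A sign also turned for TEF2 in BAN TE with total reads (0.14). With the reads of TIF1 and TIF2, of TEF1 and TEF2, and of EFT1 and EFT2 summed, 333 calls stayed the same and 0 were weaker or reversed. With the gene length of the reference, EFB1 came to 852 TPM in footprints (1260) and 1210 TPM in mRNA (1750), since that length includes its intron. The cause of the other changes was not tested. The same replicate number in both assays was not taken as a pairing: the correlation of replicate differences between footprints and mRNA over 1362 genes was 0.0822 in BAN and 0.111 to 0.72 in the other 7 isolates, positive in all 8, which is a hint from the data and not the design. With a replicate block, calls in TE came to 7 in BED, 10 in BPL, 7 in BTT, 2 in CMP, 7 in CPI and 11 in CQC. The BAN footprint libraries were the shallowest, with 63336 and 27621 reads, and the effect of depth on the calls was not tested.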

Other observations

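The 22 genes listed as cytosolic aminoacyl-tRNA synthetases, which charge tRNAs with amino acids, include ARC1, a cofactor of such enzymes. They were mostly lower in CQC: 22 of 22 in footprints and 20 of 22 in mRNA, against 23.3% and 37.2% of all genes. Their median differences were -1.75 and -1.59. GUS1, the glutamyl-tRNA synthetase, was at -2.51 ± 0.20 in CQC footprints and -2.87 ± 0.12 in CQC mRNA, and TYS1, the tyrosyl-tRNA synthetase, at -1.51 ± 0.23 and -2.19 ± 0.13. In mRNA 21 of the listed genes were higher in BTT, 18 in BED and 16 in AMH, against 32.9%, 32.8% and 33.4% of all genes, and 19 were lower in BAN, against 33.1%. Of the 8 factors of rescue, recycling and ribosome binding, 6 were higher in BED mRNA, against 32.8% of all genes, and 4 lower in CQC mRNA, near the 37.2% of all genes. STM1, a protein that binds idle ribosomes, differed by -1.56 ± 0.19 in CQC footprints and -1.79 ± 0.14 in CQC mRNA, and TMA20 by -1.35 ± 0.36 and -1.40 ± 0.13.

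Of the 8 mitochondrial translation factors, 6 were lower in AMH mRNA and 6 in BED mRNA, against 30.4% and 29.5% of all genes, with medians of -0.66 and -0.65, and 5 were higher in BPL mRNA, against 27.6%. MEF2, a mitochondrial elongation factor G, was at -1.39 ± 0.14 in BED mRNA and -1.22 ± 0.14 in AMH mRNA, and AIM23, a mitochondrial initiation factor, rose by 1.73 ± 0.11 in CQC mRNA. Of 17 enzymes that modify the factors, 12 were higher in AMH mRNA, against 33.4% of all genes, and 10 were lower and 0 higher in CPI mRNA, against 22.4% and 31.4%. DPH3, needed for the diphthamide of eEF2, was at -1.72 ± 0.21 and EFM4, a methyltransferase of eEF1A, at -1.73 ± 0.15 in CPI mRNA, while in BAN mRNA they rose by 2.17 ± 0.16 and 1.14 ± 0.12.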
